A study of Mus musculus with 2 samples.

Results

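The Celf and Mbnl families are RNA-binding proteins that set which exons of a transcript are kept. The 9 genes (6 Celf and 3 Mbnl) were taken from 23784 named genes, through every non-control probe on both arrays whose RefSeq accession belongs to a member, which gave 18 of the 34560 named probes (12 for Celf, 6 for Mbnl). The families were picked on the same log2 differences between these 2 arrays that are given here (a low Celf2 among them), so those differences are descriptions and were not tested. The cells were a mouse glioblastoma stem cell line kept as neurospheres without serum in EGF and bFGF, and derived from brain tumours made de novo with the SB transposon. The control cells carried a lentiviral non-target shRNA and the other cells a lentiviral Gli2 shRNA, and both were stably transduced. Each group is 1 array of this 1 line, so no value has a replicate, and an effect of Gli2 suppression cannot be told apart from any other difference between these cultures.

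CELF proteins bind GU-rich RNA through RNA recognition motifs, and MBNL (muscleblind-like) proteins bind GC-containing motifs through zinc fingers. Both act on the choice of exons in the nucleus and on the stability, translation or location of messenger RNA in the cytoplasm, and many exons are pushed in opposite directions by the families. They are best known from myotonic dystrophy, in which expanded CUG or CCUG repeat RNA holds MBNL proteins in the nucleus and CELF1 protein accumulates. Celf1 and Celf2 are expressed in many tissues, Celf3 to Celf6 mainly in the nervous system, Mbnl1 and Mbnl2 widely including brain, and Mbnl3 mainly in placenta and regenerating muscle.

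The promoters of the members with the furthest differences (Celf2, Celf5 and Celf6) are shown to let a reader see what sequence stands at their start sites. They come from RefSeq on build GRCm38.p6, 250 bases before to 50 after a start, read 5′ to 3′ on the gene's strand. Promoters were matched for 8 of the 9 members, 24 in all. For Celf2, which has 5 starts in the table, the outermost start and the one with the most CpG dinucleotides are shown, and for Celf5 and Celf6 the outermost. Capitals mark matches to any of 5 motifs searched on both strands. The Gli consensus was written as GACCACCCA. The GC box was GGGCGG. The CCAAT box was searched by the letters of its name, and the TATA box as TATAAA. The cAMP response element was TGACGTCA. None of the 5 motifs contains another.
Celf2 at chr2:7396149-7396448 (minus strand): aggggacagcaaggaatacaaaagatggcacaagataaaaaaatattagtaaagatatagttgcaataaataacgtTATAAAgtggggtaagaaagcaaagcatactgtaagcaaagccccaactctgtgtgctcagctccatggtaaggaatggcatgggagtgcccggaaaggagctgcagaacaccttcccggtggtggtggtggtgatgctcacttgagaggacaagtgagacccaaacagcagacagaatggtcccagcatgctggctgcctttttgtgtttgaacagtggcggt
Celf2 at chr2:6871986-6872285 (minus strand): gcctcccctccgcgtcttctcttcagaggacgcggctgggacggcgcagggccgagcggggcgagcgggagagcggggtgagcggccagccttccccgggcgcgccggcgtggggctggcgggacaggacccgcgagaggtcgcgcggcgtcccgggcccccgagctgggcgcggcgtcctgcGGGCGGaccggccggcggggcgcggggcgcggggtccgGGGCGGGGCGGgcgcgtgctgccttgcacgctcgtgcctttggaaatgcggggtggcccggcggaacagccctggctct
Celf5 at chr10:81482650-81482949 (minus strand): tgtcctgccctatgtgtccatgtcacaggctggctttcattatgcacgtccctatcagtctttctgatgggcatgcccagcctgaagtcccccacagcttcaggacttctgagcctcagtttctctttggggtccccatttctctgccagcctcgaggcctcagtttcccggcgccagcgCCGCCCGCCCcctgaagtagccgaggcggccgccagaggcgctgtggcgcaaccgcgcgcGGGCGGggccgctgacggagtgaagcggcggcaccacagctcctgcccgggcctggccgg
Celf6 at chr9:59578087-59578386 (plus strand): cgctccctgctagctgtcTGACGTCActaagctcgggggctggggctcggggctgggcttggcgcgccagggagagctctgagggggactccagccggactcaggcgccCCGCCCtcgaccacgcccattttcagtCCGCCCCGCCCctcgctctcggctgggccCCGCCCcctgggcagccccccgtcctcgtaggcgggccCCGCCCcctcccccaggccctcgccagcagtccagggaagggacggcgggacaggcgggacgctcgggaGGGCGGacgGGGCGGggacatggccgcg

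The Celf2 start at chr2:6871986-6872285 held 48 CpG, more than 98.8% of the 32851 promoters in the table, and the outermost Celf2 start held 4 (median of all promoters 7). The Celf5 and Celf6 promoters shown held 23 and 31. The Gli consensus matched 0 of the 24 member promoters and 83 (0.253%) of all promoters, which says only that these letters are not in these windows. GC boxes were in 12 of the 24 member promoters, of 7 genes, against 35.7% of all, and the Celf3 windows among them overlap. The CCAAT box was in 9 of the 24 (37.5%, against 37.4% of all) and the TATA box in 4 (16.7%, against 13.6%). The cAMP response element was in 4 of the 24, against 1.79% of all, and the 4 belong to 2 genes, Celf3 (starts whose windows overlap) and Celf6. Which start made the RNA read by a probe is not known here, so no probe value was assigned to a promoter.

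The arrays give 1 processed intensity per spot, with an error estimated by the scanner software, and each member probe had 1 spot per array. A probe counts as measured on an array if the scanner software set its well-above-background mark there. The lowest such signal was 12.8 on the control and 15.2 on the Gli2 shRNA array. Differences are Gli2 shRNA minus control on the log2 scale after each array was scaled to its 75th percentile (signals of 329 and 399), so that a signal can be higher in the Gli2 shRNA array while the scaled difference is near 0. The ± value is the software error of both spots. This error is that of the spots and leaves out any spread between cultures. A probe measured on just 1 array gets a lower bound, with the dim side set at the lowest measured signal or at the probe's own signal where that was higher. No member spot was saturated or marked as an outlier (0 of 18 probes).

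Gli2, the targeted gene, read 98.1 on the control and 57.9 on the Gli2 shRNA array, or 48.7% of the control after scaling (-1.04 ± 0.22). It lay within 2-fold with normexp background correction (-0.64), median scaling (-0.90) and cyclic loess (-0.97). Of all genes, 14563 were measured on both arrays, and 528 of these (3.63%) were past 2-fold, 268 higher (1.84%) and 260 lower (1.79%). Higher genes made up 50.8% of them, 68.6% with median scaling, 40.1% with normexp and 27% with no filter on dim probes (769 higher and 2075 lower). Of 13 neural stem and glioblastoma stem cell markers, 11 were measured on each array, with summed scaled signals of 545 and 573, and 7 of the 10 measured on both lay below 0. Among these 7, the differences of Sox2, Msi1 (-0.06) and Fabp7 did not exceed the 0.14 by which median scaling shifts all genes. Most of each sum came from the brightest markers, Fabp7 and Vim (Vim 63115 and 97436, 0.35). Sox2 (5594 and 6516, scaled difference -0.06), Olig2 (2359 and 2444, -0.23), Fabp7 (82583 and 91127, -0.14) and Nes (11613 and 19441, 0.47) were within 2-fold, as was Cd44 (959 and 669, -0.80). Itga6 was past 2-fold and lower (8480 and 5077, -1.02, and -1.12 on another probe). Both Itga6 differences were past 2-fold by less than the median scaling shift of 0.14. Nr2e1 (27.2 and 15.4) was measured in the control alone. Its bound was 2.14-fold lower, set by its own dim signal, with a software error of 0.44 on the log2 scale. The other Nr2e1 probe was not measured on either array (8.94 and 12.4). By the same bound, 169 (18.2%) of the 931 genes seen in the control array alone were at least 2-fold lower. Prom1 was close to background (14.6 and 20.2) and Fut4 was not measured on either array.

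Of the 9 members, 7 were measured on both arrays and 2 (Celf6 and Mbnl3) on the Gli2 shRNA array only, each gene being represented by its brightest probe. Celf2 was lower and Celf5 higher by 2-fold or more, which is 2 of 7 members against 3.63% of all genes, and the members were picked knowing this. Of the 11 member probes measured on both arrays 5 were past 2-fold (3 of Celf2, 1 of Celf5 and 1 of Mbnl1), beside 3.2% of all named probes. Since the choice used this contrast, nothing is read from either share. Celf6 was at least 6.15-fold higher by its bound. Celf1, Celf3, Celf4, Mbnl1 and Mbnl2 lay within 2-fold. 4 of the 7 differences lay below 0 and 3 above, with a median of -0.58 (range -2.50 to 1.27), beside a median of 0.003 over all genes. In RNA from whole cultures, fewer cells expressing a gene and less of its RNA per cell cannot be told apart.

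Celf2, which acts on both splicing and mRNA stability in brain, heart and muscle, was lower in the Gli2 shRNA array on each of its 4 probes. Its brightest probe (A_55_P2005570, transcript NM_001347094, chromosome 2) gave 2935 ± 294 in the control and 628 ± 62.9 under Gli2 shRNA, which leaves 17.6% of the control level, a difference of -2.50 ± 0.20 or 5.67-fold. Before any background step the spot's median intensity was 2654 against a local background of 41 in the control, and 638 against 31 in the Gli2 shRNA array, so both values were far above their surroundings.

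The other Celf2 probes were dimmer and went the same way. Probe A_52_P100909 (NM_001110229) gave 111 ± 11.4 and 20.2 ± 3.69, a difference of -2.74 ± 0.30. Probe A_52_P243542, on the same transcript as the brightest probe, gave 86.8 ± 9.22 and 16.3 ± 3.96, and since it was not well above background in the Gli2 shRNA array it counts as at least 6.47-fold lower, a bound set by its own dim signal, which carries a software error of 0.38 on the log2 scale. Probe A_55_P2740768 (NM_001160292) gave 42.4 ± 5.22 and 20.4 ± 4.07, a difference of -1.33 ± 0.34. The 3 probes measured on both arrays thus spanned 1.41 on the log2 scale. Among 5415 genes with several probes measured on both arrays the median span was 0.16 and the 95th percentile 0.86, and 56 genes spanned as much as Celf2.

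With normexp, which adds an offset and pulls dim values together, the brightest Celf2 probe kept a difference of -2.25, and the dim probes gave -1.36, -1.12 (a bound) and -0.55, the last of them within 2-fold. The brightest probe stayed past 2-fold in all 7 alternatives that reprocess the values (-2.53 to -2.25).

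Among all 14563 genes measured on both arrays, 6 had a lower difference than Celf2 and 15 a greater difference in either direction. This rank describes the value by which the family was picked and supports nothing. Of the 1267 genes with at least 3 probes measured on both arrays, 4, Celf2 among them, had every such probe at least 2-fold lower, and 1 had every probe at least 2-fold higher. That count uses the same Celf2 differences by which the family was picked, so it supports nothing either. With normexp, Celf2 probe A_55_P2740768 was within 2-fold (-0.55), so Celf2 would not meet this rule.

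**Figure D1:**
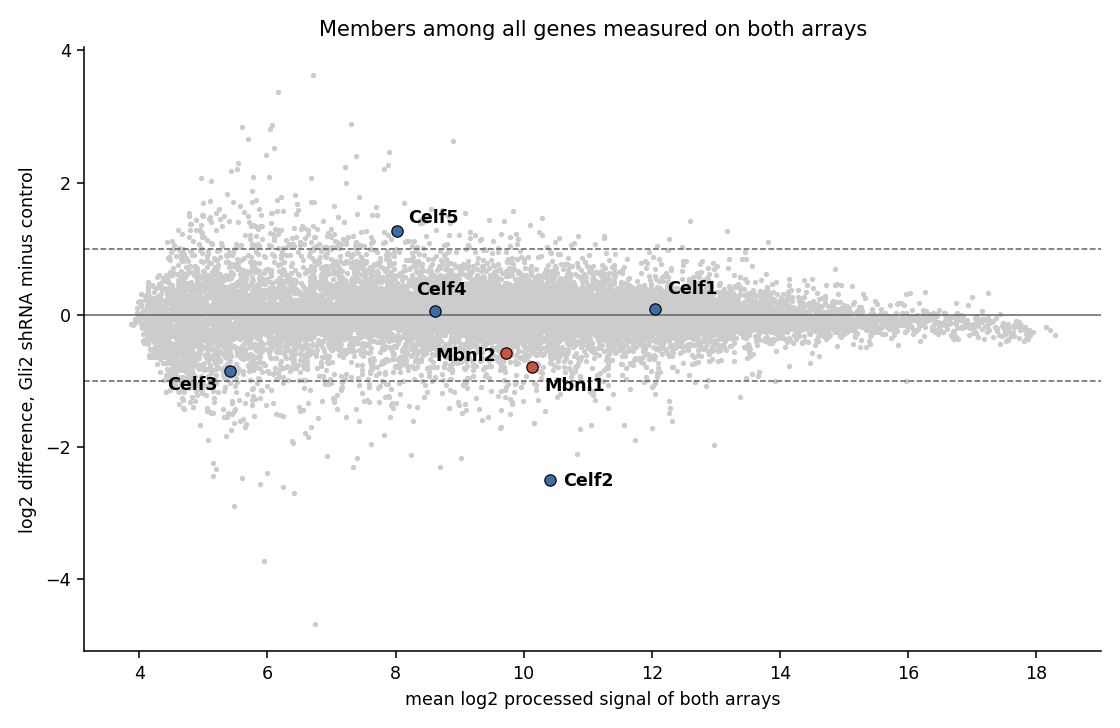
Log2 difference (Gli2 shRNA minus control, 1 array each) against the mean log2 processed signal for the 14563 genes measured on both arrays (grey), with the 7 measured Celf (blue) and Mbnl (red) genes named and dashed lines at 2-fold. Celf2 lies at -2.50, Celf5 (1.27) above the 2-fold line, and the other 5 members between the lines.

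Celf1, the closest relative of Celf2 and the family member that accumulates in myotonic dystrophy, had similar scaled levels on both arrays. Its brightest probe (NM_001244891, chromosome 2) gave 3745 ± 374 in the control and 4798 ± 479.8 under Gli2 shRNA, a difference of 0.08 ± 0.20 after scaling. Its other probe gave 729 ± 72.9 and 852 ± 85.3, a difference of -0.05 ± 0.20. Both differences were smaller than the software error, and their signs were not the same, so Celf1 has no settled direction. The differences of Celf1 and Celf2 thus lay far apart, at 0.08 and -2.50 on their brightest probes, with no replicate to test that gap.

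The Celf genes of the nervous system did not go one way. Celf3 (chromosome 3, 1 probe) gave 51.8 ± 5.96 in the control and 34.8 ± 4.90 under Gli2 shRNA, a difference of -0.85 ± 0.26, within 2-fold and -0.38 with normexp. Celf4, needed in mice to keep neurons from becoming overexcitable (chromosome 18, 1 probe), gave 349 ± 35.1 and 442 ± 44.4, a scaled difference of 0.06 ± 0.20 that was smaller than the software error.

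Celf5 (chromosome 10) was higher on its brighter probe, which gave 152 ± 15.4 in the control and 442 ± 44.3 under Gli2 shRNA, a difference of 1.27 ± 0.21 or 2.41-fold. With normexp the difference was 0.92, short of 2-fold. Its other probe, on the same transcript NM_176954, was not well above background on either array (15.6 and 6.79), so the Celf5 value rests on 1 probe. 122 genes had a higher difference than Celf5.

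Celf6 (chromosome 9), a splicing regulator of brain, kidney and testis, was seen in the Gli2 shRNA array only. On probe A_52_P459143 the signal was 7.50 ± 2.85 in the control, under the limit of 12.8, and 95.2 ± 10.1 in the Gli2 shRNA array, which makes it at least 6.15-fold higher. The raw median intensity was 48 over a background of 45 in the control and 123 over 37 in the Gli2 shRNA array. With normexp the bound was short of 2-fold (0.82 on the log2 scale). Its other probe, on the same transcript NM_175235, gave 8.54 ± 2.95 and 18.5 ± 3.77, near background on both arrays, and its bound was 1.20-fold. By the same bound, 148 (31.1%) of the 476 genes seen in the Gli2 shRNA array alone passed 2-fold.

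**Figure D2:**
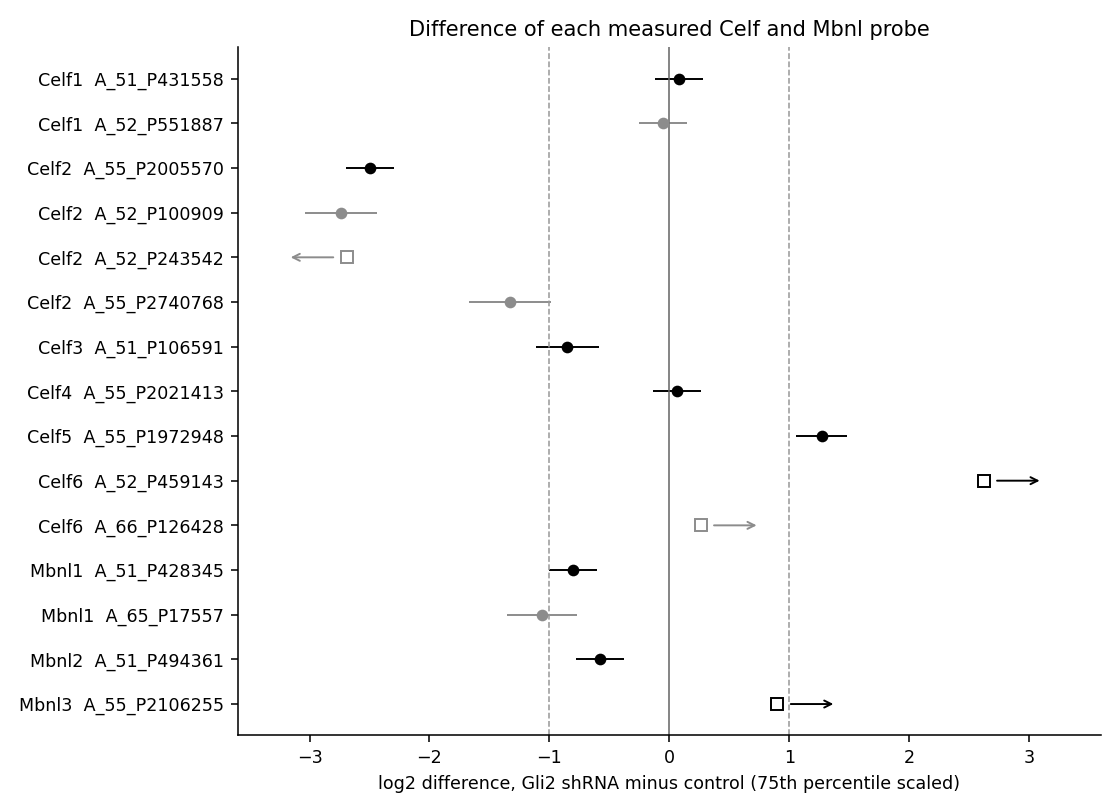
Log2 difference (Gli2 shRNA minus control, scaled to the 75th percentile) of the 15 Celf and Mbnl probes measured on at least 1 array; circles with bars are differences with the software error, open squares with arrows are bounds of probes measured on 1 array, black marks the probe that stands for the gene, grey its other probes, and dashed lines mark 2-fold. All 4 Celf2 probes and the dimmer Mbnl1 probe (-1.06) lie beyond the lower line, and Celf5 and 1 Celf6 probe beyond the upper. The brighter Mbnl1 probe and Mbnl2 lie between 0 and the lower line.

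The muscleblind genes measured on both arrays were lower by less than 2-fold. Mbnl1 (chromosome 3), the main muscleblind protein of most adult tissues, gave 1345 ± 135 in the control and 937 ± 93.8 under Gli2 shRNA on its brighter probe, 57.5% of the control after scaling and a difference of -0.80 ± 0.20. Its other probe, on the same transcript NM_020007, was dim at 45.4 ± 5.38 and 26.4 ± 4.28, a difference of -1.06 ± 0.29 that was just past 2-fold and became -0.49 with normexp. That dim probe was also within 2-fold with median scaling (-0.92), quantile normalization (-0.95) and cyclic loess (-0.90). Both Mbnl1 probes were lower in the Gli2 shRNA array, and 485 of 14563 genes had a lower difference than the brighter one.

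Mbnl2 (chromosome 14), the muscleblind protein most tied to splicing in the brain, gave 934 ± 93.5 in the control and 758 ± 75.9 under Gli2 shRNA, a difference of -0.58 ± 0.20 on its 1 probe. It was below 0 in all 7 reprocessed alternatives (-0.60 to -0.44). With median scaling, which raised the median of all genes by 0.14, Mbnl1 stood at -0.66 and Mbnl2 at -0.44.

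Mbnl3 (chromosome X), a muscleblind protein that holds back muscle differentiation, was near background. Its 3 probes share transcript NM_134163. 1 of them gave 2.58 ± 2.58 in the control and 28.8 ± 4.20 under Gli2 shRNA, a bound of 1.86-fold that lay short of 2-fold (log2 0.90, and 0.30 with normexp). This bound passed 2-fold with median scaling (1.03), quantile normalization (1.17) and cyclic loess (1.07). The other 2 probes were at 3.42 and 2.60 in the control and at 3.37 and 3.06 in the Gli2 shRNA array, where the software error was as large as the signal or nearly so. Mbnl3 therefore has no settled level in these cells.

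By likeness of levels alone, measured as the Euclidean distance over the scaled log2 levels of both arrays, the genes nearest to Celf2 were Dstn (distance 0.67), an actin-depolymerising factor, at 3456 and 969.5, Rpe (0.70), an enzyme of the pentose phosphate pathway, at 1841 and 718, and Socs2 (0.74), a suppressor of cytokine signalling, at 1940 and 854. Their log2 differences were -2.11, -1.64 and -1.46. Those nearest to Celf5 were Dusp8 (0.07), a phosphatase of MAP kinases, Unc13b (0.15), a synaptic vesicle priming factor, and Acot9 (0.19), an acyl-CoA thioesterase, with differences of 1.31, 1.14 and 1.20. With 2 arrays this likeness is a pair of levels and no pattern across conditions.

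The other splicing regulators mostly lay within 2-fold. In a list of 33 neural and tissue-specific regulators, 31 were measured on both arrays, of which 3 were past 2-fold and lower and 0 higher, with a median of -0.05 beside 0.003 for all genes and 3.63% of all genes past 2-fold. The split depends on the scaling: it was 1 higher and 2 lower with median scaling, and 1 higher and 3 lower with quantile normalization and with cyclic loess. The higher gene was Srrm3, a neural splicing factor of microexons, singled out after its values were seen. It gave 27.5 and 64.5 (0.96 ± 0.28, with 1.09, 1.03 and 1.09 in those 3 settings, but 0.14 with normexp). Its other probe, measured in the Gli2 shRNA array alone (14.8 and 61.2), was 3.42-fold higher by its bound. That bound was set by the probe's own dim signal, with a software error of 0.39 on the log2 scale. Rbm24, a muscle splicing factor, gave 142 and 63.1 (-1.45 ± 0.22, and -0.95 with normexp). Raver2, a partner of PTB proteins, gave 368 and 167 (-1.42 ± 0.21). Qk, the quaking RNA-binding protein of glia, gave 4842 and 2903 on its brightest probe (-1.01 ± 0.20), but its other probes gave -0.08 and -0.88, and with normexp (-0.93) and median scaling (-0.88) it was within 2-fold.

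The best-known neuronal regulators stayed within 2-fold. The Rbfox genes, which bind UGCAUG in introns, differed by 0.08 ± 0.22 (Rbfox1), 0.27 ± 0.20 (Rbfox2) and 0.05 ± 0.22 (Rbfox3, the NeuN antigen). Nova1 and Nova2, neuronal KH-domain proteins, differed by 0.34 ± 0.20 and 0.05 ± 0.20. Ptbp1, the repressor of neuronal exons in non-neural cells, differed by 0.03 ± 0.20, and Ptbp2, its neural counterpart, by -0.73 ± 0.20 (1132 and 826).

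The Elavl genes, which bind AU-rich RNA, differed by -0.33 ± 0.20 for the ubiquitous Elavl1, by 0.48 ± 0.20 for Elavl2, by 0.83 ± 0.21 for Elavl3 (203 and 438) and by -0.12 ± 0.20 for Elavl4. The dimmest Elavl4 probe went further down (71.7 and 20.7, -2.07 ± 0.32), so that gene depends on the probe.

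The core families were close to level. Of 14 measured SR and SR-like proteins, which bind exonic enhancers, 0 were past 2-fold and the range was -0.22 to 0.22. Of 25 hnRNP proteins, 0 were past 2-fold either, and 20 lay below 0 with a median of -0.18. Directions this small depend on the scaling: with median scaling the medians were 0.08 for the neural and tissue list, 0.02 for SR proteins and -0.05 for hnRNP proteins.

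The mouse genes whose human counterparts carry the myotonic dystrophy repeats, and their neighbours, were within 2-fold. Dmpk, the kinase gene with the CTG repeat, differed by 0.34 ± 0.20 (690.4 and 1055), its neighbours Six5 and Dmwd by -0.24 ± 0.21 and -0.30 ± 0.20, and Cnbp, the gene with the CCTG repeat, by -0.31 ± 0.20.

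Among 30 genes chosen because CELF or MBNL proteins are known to act on their exons, 24 were measured on both arrays. Of these 1 was past 2-fold on its brightest probe, beside 3.63% of all genes, and the median was -0.10 (0.03 with median scaling). The gene past 2-fold was Arhgef7, a Rac and Cdc42 exchange factor, at 747 and 2096 (1.21 ± 0.20), while its other probe differed by 0.20 ± 0.21. Mapt, the tau gene, stood at 288 and 656, a difference of 0.91 ± 0.20 on its brightest probe, with 1.14, 1.20 and 0.45 on the others. Bin1, a membrane-bending protein of muscle and neurons, differed by -0.52 ± 0.20. Dimmer probes of Dmd, Kcnma1 and Dtna, each measured on 1 array only, passed 2-fold by their bounds. So did 31.1% of all genes seen in the Gli2 shRNA array alone and 18.2% of those seen in the control alone. Dmd gave 3.10 and 119.5 (at least 7.72-fold higher), but 0.04 on its brightest probe (1051 and 1312) and -0.35 on another. Kcnma1 gave 2.63 and 43.1 (at least 2.78-fold higher), but its brightest probe was near background (15.5 and 16.4) and its others were not measured on either array. Dtna gave 32.2 and 16.6 (2.35-fold lower, a bound set by its own dim signal), but -0.03 on its brightest probe and -0.86 on another. Each value is that of 1 probe, whose place in the transcript is not known here, and exon inclusion was not measured. The values therefore do not show whether splicing of these genes differed.

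**Figure D3:**
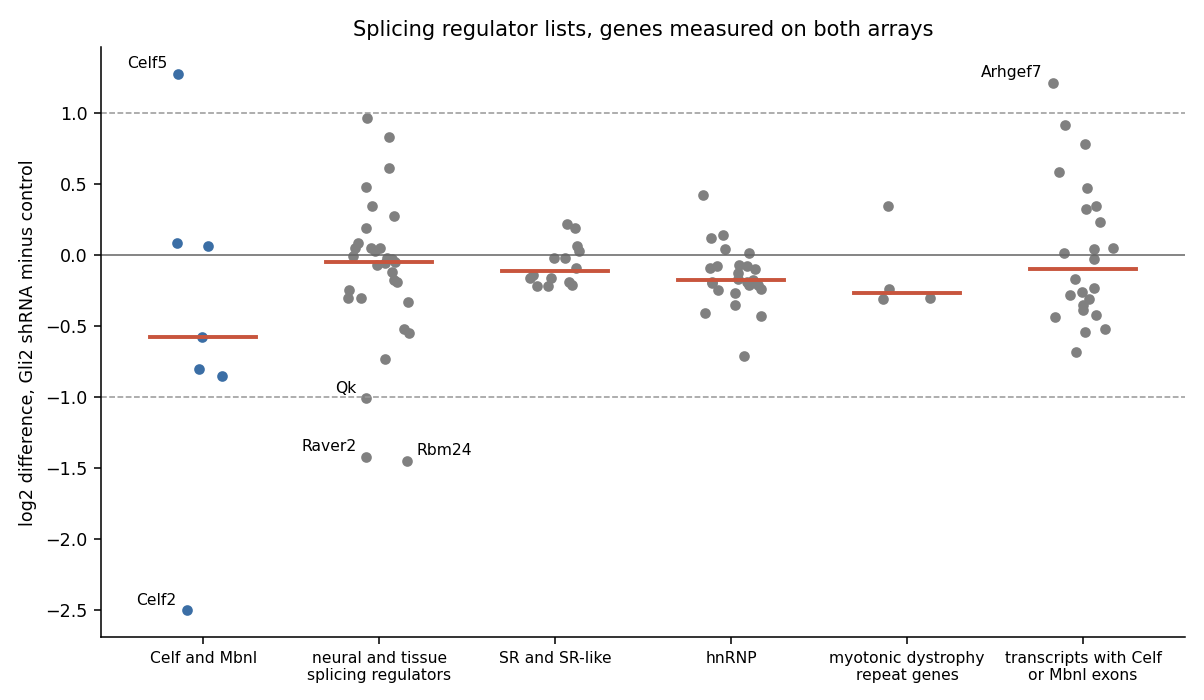
Log2 difference (Gli2 shRNA minus control, brightest probe, 1 array each) of the genes measured on both arrays in the Celf and Mbnl families (7 genes, blue) and in 5 other lists (grey), with list medians as red bars, dashed lines at 2-fold and genes past 2-fold named. The SR and hnRNP genes lie between the lines, whereas Celf2 lies at -2.50.

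Markers of cell types that could carry Celf or Mbnl transcripts also differed, and their part in the values above was not tested. Of 12 neuronal markers 11 were measured, Ina (288 and 1013, 2.90-fold) and Eno2 (199 and 640.4, 2.66-fold) were past 2-fold and higher, and Stmn2 was not measured on either array. Of those 11, 4 lay below 0. Dcx gave -0.93 on its brightest probe and 2.75 on its other probe, and Map2 gave -0.49, with -0.94 and -0.53 on other probes. The list's scaled signals summed to 75.8 and 62.6, and without Map2 to 19.1 and 22.2. Of 8 astrocyte markers, 7 were measured on both arrays and all 7 lay below 0 on their brightest probes, Mlc1 by 2.11-fold, and the sum was 50.2 and 34.2. The smallest of the 7 differences, that of Aqp4 (-0.12), is less than the 0.14 by which median scaling shifts all genes. Mlc1 (-1.08) was past 2-fold by less than that shift. Other probes gave -0.96 and 0.33 for Aqp4 and -0.77 and -0.66 for Glul. Gfap was near background, at 21.3 and 16.5 on its brightest probe and 9.28 and 18.3 on its other.

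Markers of other lineages had low sums on both arrays. Oligodendrocyte markers summed to 2.28 and 2.33, with 5 of 7 measured on each array and Mobp and Sox10 on neither. Endothelial markers summed to 0.394 and 0.326 with Cdh5, Tek, Cldn5 and Flt1 not measured, fibroblast and pericyte markers to 0.188 and 0.141 with Dcn, Lum, Pdgfrb and Rgs5 not measured, and muscle markers to 0.22 and 0.155 with Myog, Myod1 and Ckm not measured.

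The Celf and Mbnl differences were set side by side for each processing, since the dim probes depend on how background is treated.

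**Figure D4:**
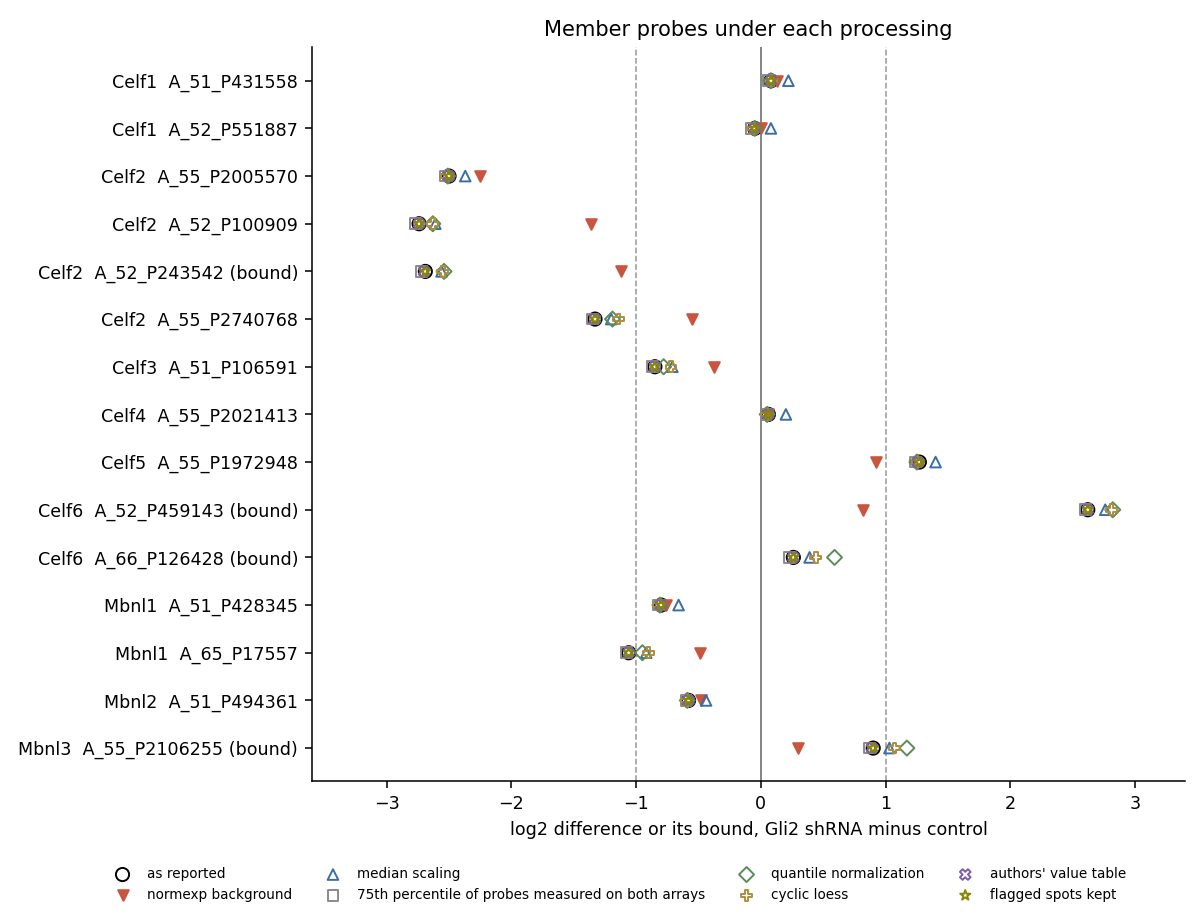
Log2 difference, or its bound, of the 15 measured member probes as reported (black circles) and under 7 alternatives (other symbols; 6 for Celf6 probe A_66_P126428, which has no bound with normexp), with dashed lines at 2-fold. Normexp (filled red triangles) moved dim probes toward 0 (Celf6 from 2.62 to 0.82), while the brightest Celf2 probe stayed between -2.53 and -2.25.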

How the data were processed

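RNA of 2 samples was measured on 1-colour Agilent arrays (Cy3), per the labels' protocols. The deposited scanner files hold processed, median and background intensity values made by the authors with Agilent Feature Extraction 12.1.0.3 (design 074809, grid build mm9, per the file headers). The authors' deposited value table is on a log2 scale. Within 0.01 it equals log2 of the processed intensity less 1 constant per array (8.36 and 8.64), which sets the 75th percentile near 0 (medians -3.55 and -3.69).

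Of 59305 non-control spots, 126 and 120 marked as non-uniform or population outliers were left out, and 56595 probes remained, 59.5% and 57.1% of them measured. Spots of a probe were averaged as log2 values and scaled to each array's 75th percentile. Accessions without versions were matched to RefSeq genes of GRCm38.p6, used for names and chromosomes. The probe with the highest mean log2 signal stands for a gene, and 2-fold counts as called. No test was possible with 1 array in each group, and the number of arrays limits the precision. limma 3.58.1 (R 4.3.3) gave the normexp (offset 50), quantile and cyclic loess alternatives. The calling step was run on simulated data whose planted differences were all beyond 2-fold, which checks the code and says nothing of the calls made here. Members, gene lists and rules were chosen with earlier results of these data known. The genes named are every member probe, Gli2, 12 neural regulators fixed by name, list genes past 2-fold, the 3 genes nearest to Celf2 and to Celf5, and cell type markers. Srrm3, Mapt, Bin1, the dimmer probes of Dmd, Kcnma1 and Dtna, the 4 myotonic dystrophy genes and the markers singled out were named after their values were seen.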

Additional observations from a re-analysis of the deposited data

How the results depend on the processing

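The 15 member probes measured on at least 1 array kept the sign of every difference past 2-fold in the 7 alternatives that reprocess the values (6 for Celf6 probe A_66_P126428, which has no bound with normexp). Member genes past 2-fold numbered 2, and 1 with normexp (Celf2 remaining), 4 with no filter on dim probes and 4 at 1.5-fold, where the background is 12.5% of all genes. All genes past 2-fold numbered 528, and 167 with normexp, 297 with a signal of at least 50 on both arrays, 2844 with no filter (769 higher and 2075 lower) and 1827 at 1.5-fold. Genes past 2-fold in the other splicing lists numbered 4, and 2 with normexp, 2 with the mean of probes and 12 at 1.5-fold. The other alternatives left these counts within 1.5 times. Normexp was run on the median spot signals in place of the planned mean signals. No paired analysis was possible because each group holds 1 array. Members with signals under about 50 (Celf3, Celf6, Mbnl3 and the dim Celf2 and Mbnl1 probes) are limited by their nearness to background.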

Other observations

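Among markers of microglia and macrophages, Itgam, an integrin of myeloid cells, had signals of 4694 and 5413 and Csf1r of 389.9 and 432, while Ptprc and Cx3cr1 were not well above background on either array and P2ry12 and Tmem119 were near it (19.1 and 21.5 in the control). The summed scaled signal of the list was 15.8 on the control and 14.9 on the Gli2 shRNA array, most of it from this Itgam probe (-0.07). The other Itgam probe was far dimmer, at 35.2 and 55.3 (0.37).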
